A study of Mus musculus with 22 samples.

Results

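Alarmins are cytokines that epithelial and other barrier cells release when they are damaged or irritated, and 7 mouse genes encode the receptor chains through which T cells sense 3 of them and the related cytokine IL-18. The 7 genes are Il1rl1 and Il1rap (chains for IL-33), Il17rb and Il17ra (IL-25), Crlf2 (TSLP), and Il18r1 and Il18rap (IL-18). They were taken by name, with no measured value in the rule, from the 55291 gene names listed for each library. The libraries are RNA-seq of memory CD4+ T helper cells of the Th2 type, which make type 2 cytokines, sorted after transfer into mice.

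The labels name 4 groups of 2 RNA libraries each, TissueExTRM, TissueExTcirc, CirculatingExTRM and CirculatingExTcirc. TRM are memory cells that stay resident in a tissue, Tcirc are those that circulate, and the end of each name gives the population from which the cells derive. All 8 are labelled as CD4+ T cells of female mice of 6 to 10 weeks with Balb/c as the host strain, and as lung, although the protocols place the CirculatingExTRM cells in peripheral blood. The design text describes a pair of experiments, which used T cell receptor transgenic donors whose receptors recognise ovalbumin (OVA), and recipients given OVA through the nose. In one, OT-II creERT2 cells in C57BL/6 (Ly5.2) hosts were traced by tamoxifen and taken on day 49. In the other, lung TRM and TCIRC cells of DO11.10 origin were moved into BALB/c-nu/nu hosts, which lack a thymus, and taken on day 71 after OVA rechallenge. The RNA titles do not say which experiment a library belongs to. The Balb/c host label matches the DO11.10 experiment, but ATAC-seq samples titled OTII carry it too, so it does not settle the point. Whether replicates came from separate mice is not stated either, so p-values measure the spread between libraries, which may be technical.

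IL-33 binds the ST2 protein encoded by Il1rl1, which then recruits the accessory chain encoded by Il1rap, and IL-18 uses the related pair of Il18r1 and Il18rap. Both pairs signal through MyD88 and IRAK kinases. IL-25 needs Il17rb together with Il17ra, a chain that several IL-17 family cytokines share. TSLP needs Crlf2 together with Il7r, the chain that also serves IL-7. ST2 marks Th2 cells and group 2 innate lymphoid cells, and IL-33 can make memory Th2 cells in the airway release IL-5 and IL-13 without antigen, while the IL-18 receptor is best known from Th1 and natural killer cells.

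The libraries differed in how much they captured, which bears on every value of 0 below. Values are FPKM, which divide the fragments of a gene by its length and by the mapped fragments of its library, so levels of different genes can be set side by side. The tissue libraries and CirculatingExTRM replicate 2 listed 29688 to 37894 names above 0, against 12785 and 7042 in CirculatingExTcirc replicates 1 and 2. CirculatingExTRM replicate 1 listed 917 names, had 1 of 12 housekeeping genes above 0 and all 7 receptor chains at 0, and was treated as missing, which leaves 7 libraries and a single one for CirculatingExTRM. CirculatingExTcirc replicate 2 listed 7 of the 12 housekeeping genes above 0 and the other 6 libraries all 12. All 9 T cell markers were above 0 in each tissue library and in CirculatingExTRM replicate 2, with 8 and 6 of 9 in CirculatingExTcirc replicates 1 and 2. The marker missing from both CirculatingExTcirc libraries was Cd3d, a gene of the CD3 complex. Every tissue library and CirculatingExTRM replicate 2 listed Cd3d at 19.2 FPKM or more. Read totals are not part of the deposited values.

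Il1rl1 was the highest of the 7 chains in tissue. Il1rl1 (ENSMUSG00000026069.15, chr1:40404864-40465418 of mm10) was at 112 and 64.0 FPKM in TissueExTRM, 82.7 and 109.9 FPKM in TissueExTcirc, 34.5 FPKM in CirculatingExTRM replicate 2 and 0 in both CirculatingExTcirc libraries. Its mean over the 4 tissue libraries was 92.2 ± 23.0 FPKM (SD), and the library of CirculatingExTRM lay below all 4. The tissue values placed Il1rl1 at percentiles 97.8 to 99.1 of protein-coding names, and that of CirculatingExTRM replicate 2 at percentile 94.7.

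Il1rap, which encodes the accessory chain that IL-33 shares with IL-1, was the lowest of the 7. Il1rap (ENSMUSG00000022514.14, chr16:26581509-26730128) was at 3.30 and 2.42 FPKM in TissueExTRM, 5.19 and 2.95 in TissueExTcirc, 3.13 in CirculatingExTRM replicate 2 and 0 in both CirculatingExTcirc libraries. Unlike Il1rl1, it had its CirculatingExTRM value inside the range of the tissue libraries. The ratio of Il1rl1 to Il1rap FPKM was 33.9 and 26.5 in TissueExTRM, 15.9 and 37.2 in TissueExTcirc and 11.1 in CirculatingExTRM replicate 2.

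The IL-25 chains took opposite positions in CirculatingExTRM. Il17rb (ENSMUSG00000015966.17, chr14:29996168-30008896), the chain that binds IL-25, was at 26.7 and 16.4 FPKM in TissueExTRM, 10.8 and 22.5 in TissueExTcirc, 3.52 in CirculatingExTRM replicate 2 and 0 in both CirculatingExTcirc libraries. Il17ra (ENSMUSG00000002897.5, chr6:120463181-120483731), the shared chain, was at 13.3 and 11.5 FPKM in TissueExTRM, 9.55 and 8.64 in TissueExTcirc, 17.6 in CirculatingExTRM replicate 2, and 26.7 and 0 in CirculatingExTcirc replicates 1 and 2. Il17rb was thus lowest, and Il17ra highest, in the circulating libraries that listed them. Il17rb exceeded Il17ra in all 4 tissue libraries, with ratios of 2.01 and 1.43 in TissueExTRM and 1.13 and 2.61 in TissueExTcirc, against 0.200 in CirculatingExTRM replicate 2.

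Crlf2, the TSLP-specific chain, was close in tissue and in CirculatingExTRM replicate 2. Crlf2 (ENSMUSG00000033467.12, chr5:109554709-109559128) was at 9.21 and 8.82 FPKM in TissueExTRM, 8.91 and 5.86 in TissueExTcirc, 9.97 in CirculatingExTRM replicate 2 and 0 in both CirculatingExTcirc libraries. Its partner Il7r was at 121.2 and 94.9 FPKM in TissueExTRM, 99.1 and 110.6 in TissueExTcirc, 102.1 in CirculatingExTRM replicate 2, and 81.1 and 0 in CirculatingExTcirc replicates 1 and 2. The ratio of Crlf2 to Il7r FPKM was between 0.0530 and 0.0976 in the 5 libraries that listed both.

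The IL-18 chains were above 0 in each of the 7 libraries except CirculatingExTcirc replicate 2. Il18r1 (ENSMUSG00000026070.15, chr1:40465552-40500854), the chain that binds IL-18, was at 47.7 and 55.7 FPKM in TissueExTRM, 24.4 and 41.3 in TissueExTcirc, 51.2 in CirculatingExTRM replicate 2 and 32.7 in CirculatingExTcirc replicate 1. Il18rap (ENSMUSG00000026068.11, chr1:40515362-40551707), the accessory chain, was at 29.7 and 25.6 FPKM in TissueExTRM, 18.3 and 25.4 in TissueExTcirc, 33.7 in CirculatingExTRM replicate 2 and 32.5 in CirculatingExTcirc replicate 1. The circulating values of Il18r1 lay inside its tissue range, and those of Il18rap lay above it. The ratio of Il18r1 to Il18rap stayed between 1.01 and 2.18 in the 6 libraries.

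**Figure D1:**
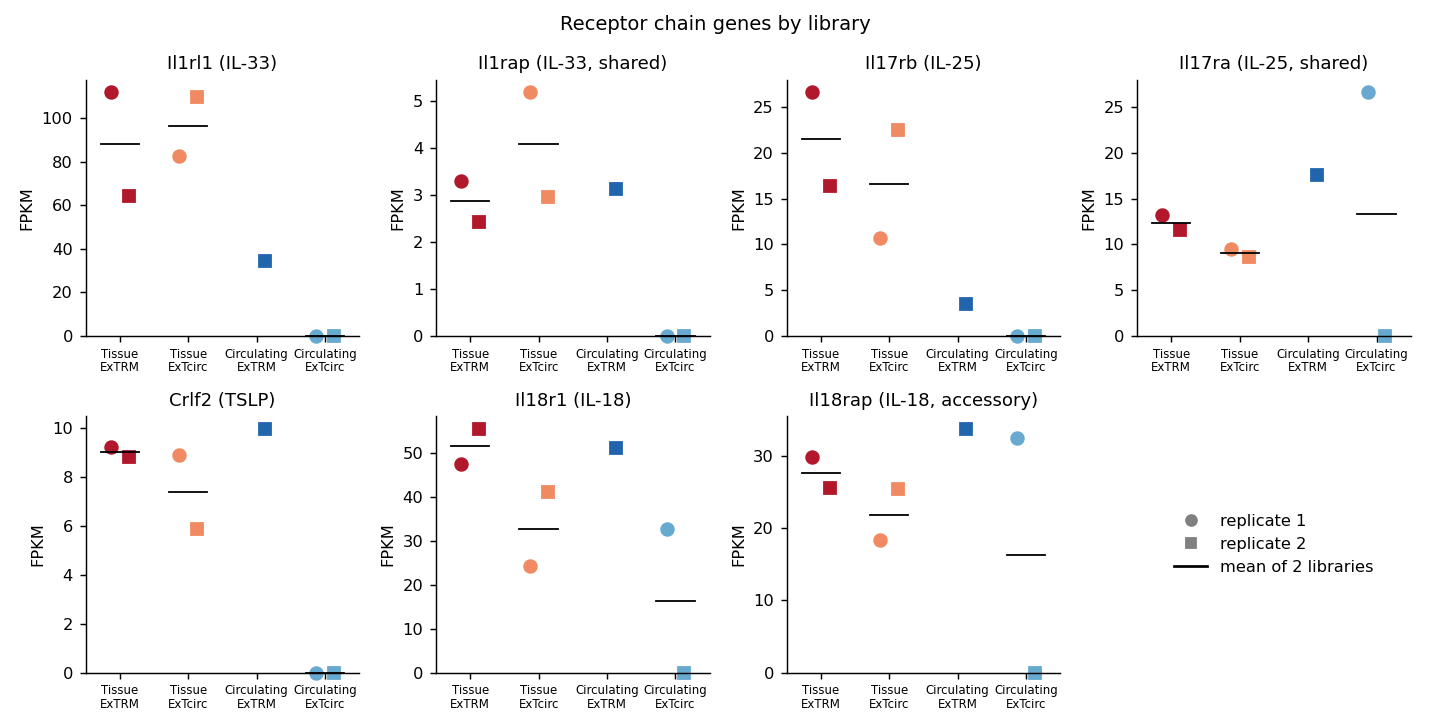
FPKM of the 7 receptor chain genes (vertical axes, linear, a scale for each gene) in the 7 libraries used, by group, with circles for replicate 1, squares for replicate 2 and bars for the mean of 2 libraries. Il1rl1 and Il17rb are lower in CirculatingExTRM replicate 2 than in all 4 tissue libraries, and Il1rl1, Il1rap, Il17rb and Crlf2 are at 0 in both CirculatingExTcirc libraries.

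The order of the chains was the same in all 4 tissue libraries, namely Il1rl1, Il18r1, Il18rap, Il17rb, Il17ra, Crlf2 and Il1rap from high to low. Il1rl1 stood clear of Il18r1, and Crlf2 clear of Il1rap, with no overlap between their ranges over the tissue libraries, whereas the 4 other neighbouring pairs in that order overlapped. In CirculatingExTRM replicate 2 the order was Il18r1, Il1rl1, Il18rap, Il17ra, Crlf2, Il17rb and Il1rap. The ratio of Il18r1 to Il1rl1 was 0.426 and 0.869 in TissueExTRM and 0.295 and 0.376 in TissueExTcirc, against 1.49 in CirculatingExTRM replicate 2. These ratios compare genes within a library, so a scaling factor of the library cancels in them.

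**Figure D2:**
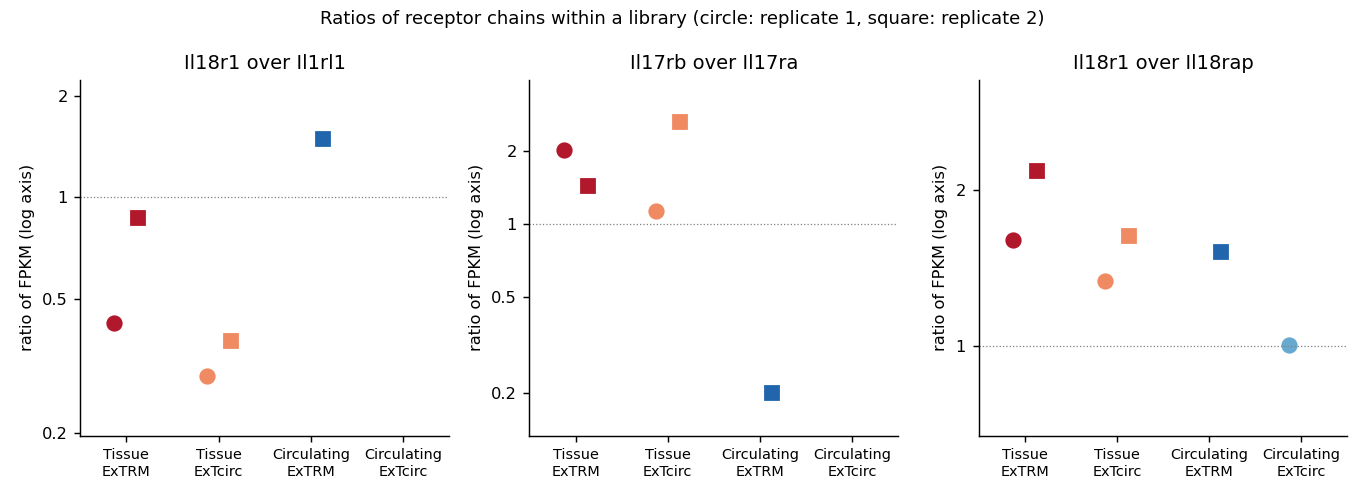
Ratios of the FPKM of receptor chains within a library (vertical axes, log scale) for Il18r1 over Il1rl1, Il17rb over Il17ra and Il18r1 over Il18rap, by group, 1 point a library; no point is drawn where either gene is at 0. The first ratio is above 1 and the second below 1 only in CirculatingExTRM replicate 2, while the third lies at 1.01 or above in all 6 libraries shown.

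Cells of ex-TRM origin were compared between tissue and circulation, with 2 tissue libraries and 1 circulating library. In CirculatingExTRM replicate 2, Il1rl1 was at 39.2% and Il17rb at 16.3% of their TissueExTRM means, whereas Il18r1 was at 99.2%, Il1rap at 109%, Crlf2 at 110.5%, Il18rap at 122% and Il17ra at 142%. Ranked by this change among the 9096 genes with a mean of at least 5 FPKM over the 7 libraries, Il17rb lay at percentile 1.43 and Il1rl1 at percentile 3.79, and the other chains between percentiles 45.5 and 76.1. Il1rl1 and Il17rb were below all 4 tissue libraries in this library, as were 19.5% of the 9096 genes. Il17ra, Crlf2 and Il18rap were above all 4, as were 34.9% of the genes. The positions of Il1rl1, Il17rb and Il17ra were the same under 3 other scalings of the libraries, while Crlf2 moved inside the tissue range under median-of-ratios factors and under equal protein-coding sums, and Il18rap under median-of-ratios factors.

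None of the chains passed the test of this comparison across all genes. limma, a linear model that shares the spread across genes and here takes the lone library to vary like those of the other groups, was fitted to log2(FPKM + 1) and called 0 of 9096 genes (0%) at an adjusted p under 0.05. It had 358 at an unadjusted p under 0.05, and its median difference over all genes was -0.06. The log2 difference of TissueExTRM minus CirculatingExTRM was 2.28 ± 0.57 (SE) for Il17rb and 1.27 ± 0.49 for Il1rl1, and the limma adjusted p was 1 for both. Its 95% intervals were 0.73 to 3.83 for Il17rb and -0.07 to 2.61 for Il1rl1. For Crlf2 it was -0.13 ± 0.37, with an interval of -1.13 to 0.87. The errors of Il17ra, Il18r1 and Il18rap in this fit were at least 2.05, since each had a value and a 0 in CirculatingExTcirc. A fit without both CirculatingExTcirc libraries, added after the data had been seen, gave -0.48 ± 0.24 for Il17ra, 0.01 ± 0.37 for Il18r1 and -0.28 ± 0.28 for Il18rap, and 0 called genes. Its unadjusted p was under 0.05 for 1348 genes, and its limma adjusted p was 0.25 for Il17rb and 0.31 for Il1rl1. Median-of-ratios factors moved the median of all genes to 0.21, with Crlf2 at 0.14 and Il18rap at 0.01.

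**Figure D3:**
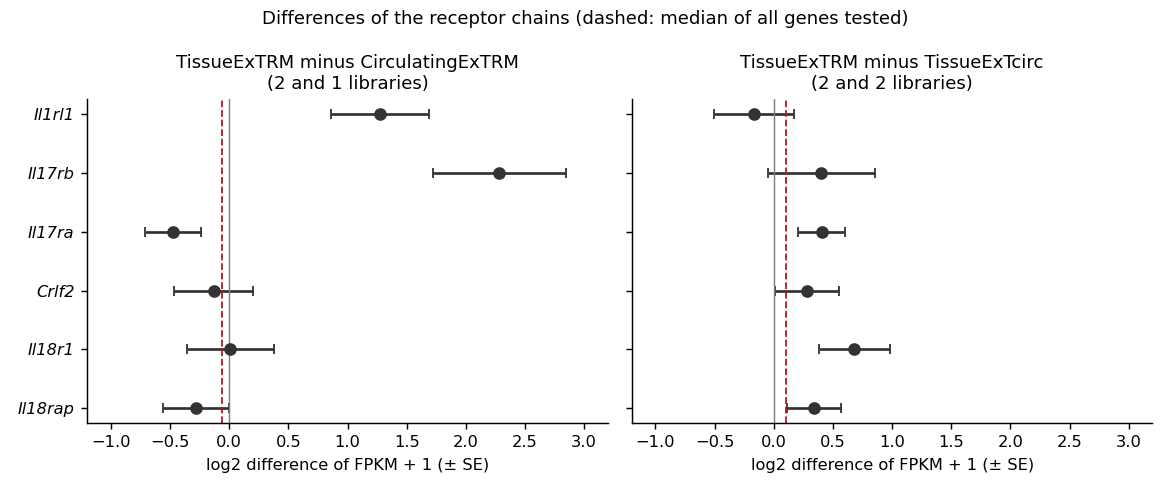
Log2 differences of FPKM + 1 with their SE for the 6 chains that reached a mean of 5 FPKM, from limma fits without both CirculatingExTcirc libraries (left, 5 libraries, TissueExTRM minus CirculatingExTRM) and of the 4 tissue libraries alone (right, ex-TRM minus ex-Tcirc); the dashed lines are the medians of all 9096 genes, -0.06 and 0.11. On the left Il17rb at 2.28 and Il1rl1 at 1.27 lie apart from the other chains, and no chain passed the test on either side.

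Within tissue the origin of the cells made no called difference to any chain. limma called 0 of 9096 genes for TissueExTRM minus TissueExTcirc (0%), while 98 had an unadjusted p under 0.05 and the median difference was 0.11. Il18r1 averaged 51.7 ± 5.65 FPKM in TissueExTRM and 32.9 ± 11.9 in TissueExTcirc (SD, n = 2 each). Its log2 difference over the 4 tissue libraries alone was 0.68 ± 0.30 (SE), with a limma adjusted p of 0.706. For Il1rl1 the mean was 88.0 ± 33.9 FPKM in TissueExTRM and 96.3 ± 19.2 FPKM in TissueExTcirc, with a difference of -0.17 ± 0.34 that changed sign when TissueExTRM replicate 2 (0.23) or TissueExTcirc replicate 2 (0.04) was left out. For Il17rb the mean was 21.6 ± 7.25 FPKM in TissueExTRM and 16.7 ± 8.34 FPKM in TissueExTcirc, with a difference of 0.40 ± 0.45 that was -0.10 without TissueExTcirc replicate 1. Over the same 4 libraries the difference was 0.41 ± 0.20 for Il17ra, 0.34 ± 0.23 for Il18rap and 0.28 ± 0.27 for Crlf2. Il17ra, Il18r1 and Il18rap had both TissueExTRM values above both TissueExTcirc values, as did 33% of all genes tested, and Il18r1 alone did so under all 4 scalings. Il1rap averaged 2.86 ± 0.63 FPKM in TissueExTRM and 4.07 ± 1.58 in TissueExTcirc, and its ranges overlapped.

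Il1rl1, Il1rap, Il17rb and Crlf2 were listed at 0 in both CirculatingExTcirc libraries, and how much such a 0 says differs by level. Of the 9096 genes tested, 27.4% were at 0 in both libraries, 31.8% in replicate 1 and 56.6% in replicate 2. Of the 247 protein-coding genes at least as high as Il1rl1 in tissue, 3 (1.21%) were at 0 in CirculatingExTcirc replicate 1 and 72 (29.1%) in replicate 2. The 3 were Il1rl1 itself, Cd40lg, a T cell costimulatory ligand, and the ribosomal protein gene Rps15. Cd40lg and Rps15 were picked out on these values. Rps15 ranged over 179 to 252 FPKM across the tissue libraries and was at 255 FPKM in CirculatingExTRM replicate 2. The cause of these zeros was not tested. For the lower chains zeros were common, with 18.7% and 54.9% of the genes at least as high as Il17rb, 36.2% and 66.0% for Crlf2, and 46.8% and 71.7% for Il1rap in CirculatingExTcirc replicates 1 and 2. The IL-18 chains and Il17ra, at 0 in replicate 2 alone, met a share of 41.6% to 63.5% there. In bulk libraries, fewer cells of a type and less RNA per cell cannot be told apart.

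**Figure D4:**
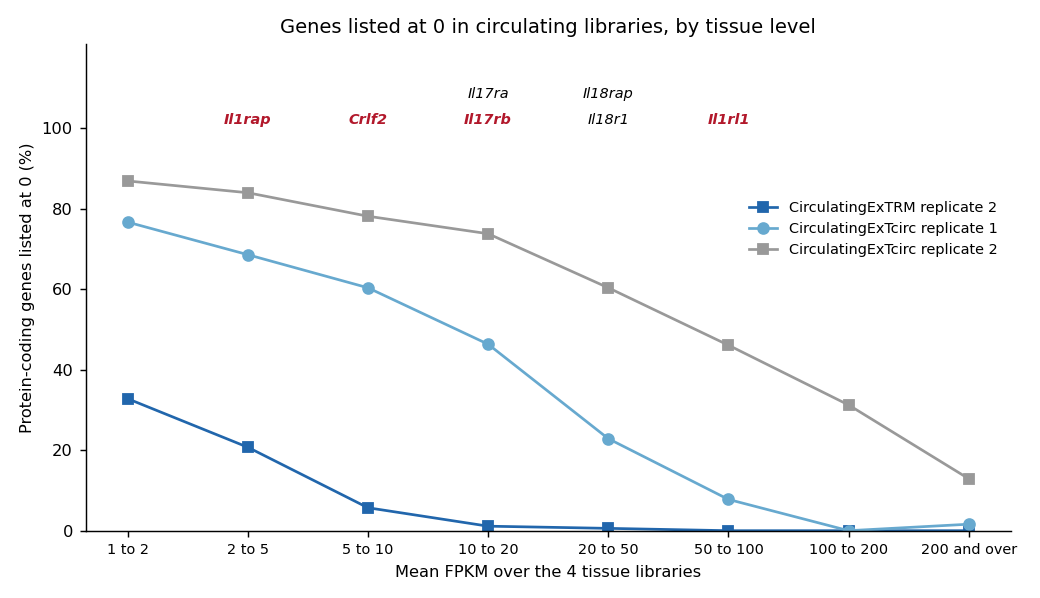
Share of protein-coding genes listed at 0 (vertical axis, percent) in 3 circulating libraries against the mean FPKM over the 4 tissue libraries (horizontal axis, bins), with the chains written above their bins, in bold red where both CirculatingExTcirc libraries list them at 0. In CirculatingExTcirc replicate 1 the share is 68.6% in the bin of Il1rap, 60.4% in that of Crlf2, 46.4% in that of Il17rb and 7.77% in that of Il1rl1.

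Against CirculatingExTcirc, Il1rl1, Il17rb and Crlf2 passed the test of higher levels in tissue, in a comparison where 27.4% of the 9096 genes were called in that direction. For TissueExTcirc minus CirculatingExTcirc, the limma adjusted p was 0.0011 for Il1rl1, 0.00231 for Crlf2 and 0.00376 for Il17rb. No fold is given, since the log2 difference from a group at 0 depends on the added 1. Cd3d, a T cell marker with the same pair of zeros, was called higher in tissue too, here and averaged over origin. Of the 2496 genes listed at 0 in both CirculatingExTcirc libraries, 2275 were called higher in tissue, so a call here follows from the pair of zeros for most genes. Leaving out either CirculatingExTcirc library keeps its group at 0 for these 3 chains, so such fits cannot test their calls. With library weights none of the 3 passed (limma adjusted p = 0.0646, 0.0922 and 0.179 for Il1rl1, Crlf2 and Il17rb). Averaged over both origins, the 3 chains again passed, at adjusted p = 0.00548, 0.00678 and 0.0157 for Il1rl1, Il17rb and Crlf2, where 23.6% of genes were called higher. That call of Crlf2 was lost without TissueExTRM replicate 1 (adjusted p = 0.0733) or 2 (0.0719).

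Il17ra, Il18r1 and Il18rap were not called between tissue and circulation over the 7 libraries, and 1 library decides their values. Averaged over both origins, their log2 differences of tissue minus circulating were 0.23 ± 1.32, 1.25 ± 1.42 and 0.84 ± 1.40 (SE). Without CirculatingExTcirc replicate 2 they were -0.97 ± 0.16, -0.01 ± 0.26 and -0.42 ± 0.19, and Il17ra was then called lower in tissue (limma adjusted p = 0.0135), as part of 3949 called genes (43.4%). Without CirculatingExTcirc replicate 1, which leaves the library with 7042 names, they were 1.43, 2.52 and 2.11. The median difference over all genes in that fit was 1.32. Il17ra lay above all 4 tissue libraries both in CirculatingExTRM replicate 2 and in CirculatingExTcirc replicate 1, under each of 4 scalings.

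A two-sided exact permutation test of the 4 tissue against the 3 circulating libraries gave p = 0.0571 for Il1rl1 and Il17rb, which is the smallest p this design allows. These were the chains with all 4 tissue libraries above all 3 circulating ones, as were 13.1% of the 9096 genes. The exact p was 0.171 for Il1rap, 0.286 for Crlf2, 0.457 for Il18r1 and 0.857 for Il17ra and for Il18rap. Il1rap failed the minimum of 5 FPKM. With a lower minimum, under which 28325 genes were tested, its log2 difference averaged over origin was 1.10 ± 0.30 (limma adjusted p = 0.0935), and it was called only for TissueExTcirc minus CirculatingExTcirc (adjusted p = 0.0184), where 20.7% of those genes were called higher in tissue.

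In circulation, Il1rl1 and Crlf2 passed the test of higher levels in ex-TRM than in ex-Tcirc cells (limma adjusted p = 0.00305 and 0.00377), where 24.4% of all genes were called in that direction. Il17rb did not pass (limma adjusted p = 0.0676). Leaving out CirculatingExTcirc replicate 1 or either TissueExTcirc library moved it across the threshold, but each such fit leaves that group with 1 library. Without CirculatingExTcirc replicate 1 the median difference over all genes rose from 1.63 to 2.93. The ex-TRM side of this comparison is a single library, and of the 2217 genes called higher in it 96.1% were at 0 in both CirculatingExTcirc libraries. The interaction, the tissue minus circulating difference in ex-TRM cells less the same in ex-Tcirc cells, was called for the same 2 chains (adjusted p = 0.00918 and 0.0138), among 21.9% of genes called in that direction. Its calls ended without TissueExTRM replicate 1 (adjusted p = 0.0581 and 0.0687) or replicate 2 (0.0573 and 0.0697), where limma called 0 of 9096 genes, with 2139 and 2136 at an unadjusted p under 0.05.

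Il1rl1, Il18r1 and Il18rap are neighbours in a cluster of interleukin 1 receptor genes on chromosome 1. Their spans run head to tail, with 133 bases between Il1rl1 and Il18r1 and 14507 between Il18r1 and Il18rap. The 3 neighbours did not share a pattern. Il1rl1 was at 64.0 FPKM or more in tissue against 34.5 FPKM in CirculatingExTRM replicate 2, where Il18r1 and Il18rap had 51.2 and 33.7 FPKM. Il1r2, a decoy receptor for IL-1 in the same cluster, was at 16.8 and 12.5 FPKM in TissueExTRM, 18.5 and 7.71 in TissueExTcirc, 3.38 in CirculatingExTRM replicate 2 and 0 in both CirculatingExTcirc libraries, and like Il1rl1 it was highest in tissue. Il1r1, which encodes the signalling IL-1 receptor, and Il1rl2, which encodes the IL-36 receptor, ranged over 2.37 to 6.98 FPKM across the tissue libraries, with 7.30 and 3.85 FPKM in CirculatingExTRM replicate 2. In CirculatingExTcirc replicates 1 and 2, Il1r1 was at 0 and 2.88 FPKM and Il1rl2 at 4.93 and 0 FPKM, so each was above 0 in 1 of the libraries that listed Il1rl1 at 0. Map4k4, the kinase gene that borders the cluster, was at 56.7 to 69.8 FPKM in tissue, 72.4 in CirculatingExTRM replicate 2, and 48.7 and 37.1 in CirculatingExTcirc.

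**Figure D5:**
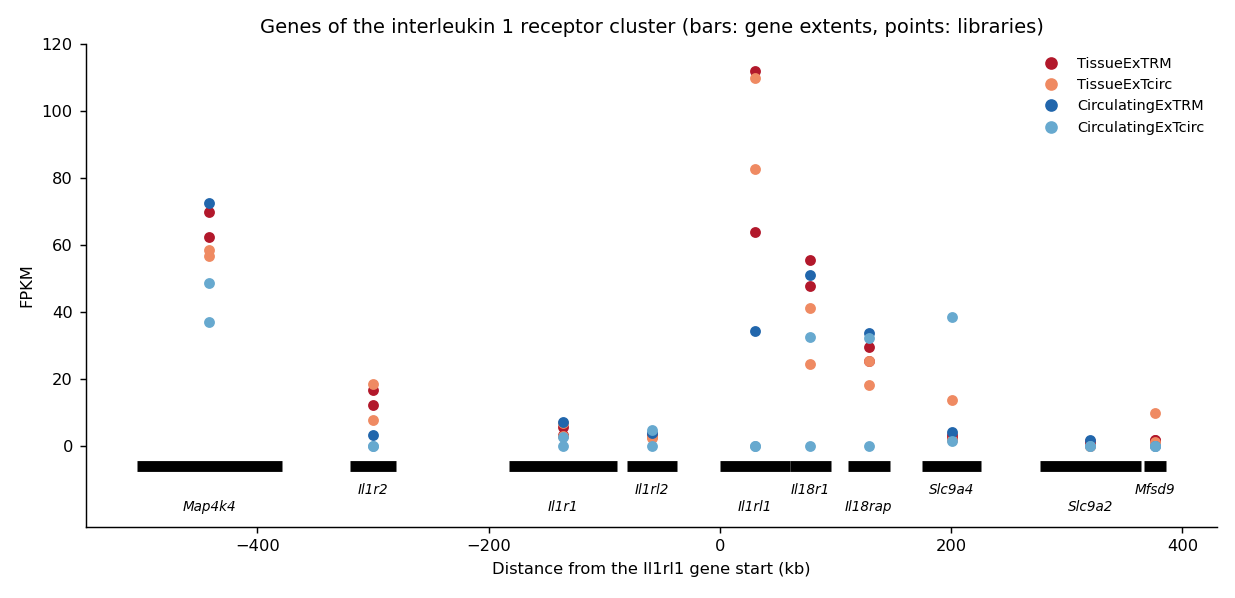
FPKM (vertical axis) of 10 genes of the interleukin 1 receptor cluster on chromosome 1, 1 point a library and coloured by group, at their distance from the Il1rl1 start (horizontal axis, kb); bars below 0 show the extent of each gene. Il1rl1, Il1r2 and Mfsd9 (1.43 to 10.03 FPKM in tissue) have their tissue points above the CirculatingExTRM point, and Il18r1 and Il18rap do not.

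The stretches before the starts of the 3 clustered genes and of Il17rb are shown because these genes lie side by side or differ most between TissueExTRM and CirculatingExTRM. They are RefSeq windows of GRCm38.p6, the mm10 build, which hold 6 of the 7 chains. Il1rl1 has a pair of starts among them, and both of its windows lie inside its span of chr1:40404864-40465418. The stretch before that span is not shown. Il18r1 has 3 starts close together, and only the part of its first window that lies outside the Il1rl1 span is shown. Capitals mark matches, on either strand, to the GATA motif AGATAA and its variant TGATAA, to the T-box motif GGTGTGA, to the STAT motif TTCNNNGAA and to the AP-1 motif TGANTCA, and none of these matches overlap. The windows are chr1:40429320-40429569 and chr1:40439379-40439628 for Il1rl1, chr1:40465419-40465551 for the whole gap before Il18r1 and chr1:40515112-40515361 for Il18rap, all on the plus strand, and chr14:30008897-30009146 on the minus strand for Il17rb.
Il1rl1 start 1: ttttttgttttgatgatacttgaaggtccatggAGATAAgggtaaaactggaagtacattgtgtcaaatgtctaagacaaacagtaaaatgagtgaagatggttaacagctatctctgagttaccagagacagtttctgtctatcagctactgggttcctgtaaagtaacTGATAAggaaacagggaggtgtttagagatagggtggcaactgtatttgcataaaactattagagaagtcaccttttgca
Il1rl1 start 2: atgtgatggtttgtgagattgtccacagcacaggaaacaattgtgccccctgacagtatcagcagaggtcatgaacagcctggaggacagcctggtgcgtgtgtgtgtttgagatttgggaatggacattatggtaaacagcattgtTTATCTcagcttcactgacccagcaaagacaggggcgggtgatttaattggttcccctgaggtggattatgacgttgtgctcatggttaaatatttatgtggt
Il18r1: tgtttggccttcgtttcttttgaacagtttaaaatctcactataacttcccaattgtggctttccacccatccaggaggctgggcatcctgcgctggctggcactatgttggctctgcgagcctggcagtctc
Il18rap: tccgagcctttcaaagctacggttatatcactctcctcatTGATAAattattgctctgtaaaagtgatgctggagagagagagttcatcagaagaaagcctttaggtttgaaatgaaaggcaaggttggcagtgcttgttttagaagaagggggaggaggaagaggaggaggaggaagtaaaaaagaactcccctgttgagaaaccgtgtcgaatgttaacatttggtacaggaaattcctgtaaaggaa
Il17rb: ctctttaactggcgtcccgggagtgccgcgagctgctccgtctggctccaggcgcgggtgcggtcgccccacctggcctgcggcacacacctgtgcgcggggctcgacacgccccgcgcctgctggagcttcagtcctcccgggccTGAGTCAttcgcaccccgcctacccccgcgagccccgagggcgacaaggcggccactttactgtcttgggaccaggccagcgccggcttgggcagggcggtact
The first Il1rl1 start had GATA matches 217 and 80 bases before it, the second Il1rl1 start a match on the other strand 103 bases before it, and Il18rap a match 210 bases before its start. Il17rb had an AP-1 match 104 bases before its start. The 133 bases before Il18r1 held none of the 4 motifs, nor did the whole 250 bases before the pair of its starts that lie further upstream, while those before its last start held 2 STAT matches. Of 32851 such windows of 250 bases, 16.6% held a GATA match, 7.02% a STAT match, 6.75% an AP-1 match and 3.33% a T-box match, and of windows of 133 bases 8.49% held a GATA match. Matches this common describe the letters and do not show a binding site.

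The ligands of these receptors, Il33, Il25, Tslp and Il18, were listed at 0 in all 7 libraries. Of 9 other chains of the same receptor families, Il1r2 and Sigirr, which encodes an inhibitory receptor of the IL-1 family, were the 2 that reached the minimum. Both passed as higher in tissue averaged over origin, with log2 differences of 2.76 ± 0.38 and 1.79 ± 0.26 (limma adjusted p = 0.00975 and 0.0114). Of all genes tested, 23.6% were called in that direction. Il1r2 and Sigirr were at 0 in both CirculatingExTcirc libraries, so the sizes of their differences depend on the constant added before taking logs. Among tested genes with that pair of zeros, 82.2% were called higher in this comparison. Sigirr was at 15.6 and 11.5 FPKM in TissueExTRM, 8.19 and 12.95 in TissueExTcirc and 12.7 in CirculatingExTRM replicate 2, so that within ex-TRM cells its value lay in the tissue range, unlike that of Il1r2. Of 5 partners of Crlf2, which are Il7r, Jak1, Jak2, Stat5a and Stat5b, none passed in either direction.

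Signalling genes downstream of the receptors passed at about the share of all genes, of which 23.6% were called higher in tissue averaged over origin. Of 11 tested genes of the MyD88 pathway, 3 passed as higher in this comparison, namely the kinase genes Irak1, Irak4 and Chuk, and none as lower, with a list median of 0.35 against 0.73 over all genes. Traf2, 1 of 4 adaptors linked to IL-17 receptors, passed with 1.79 ± 0.19 (SE; limma adjusted p = 0.00595). Of 9 tested negative regulators, 2 passed as higher, Tollip and Usp38, again close to the share of all genes. All 6 of these were at 0 in both CirculatingExTcirc libraries, and within ex-TRM cells their differences ran from -0.42 for Chuk to 0.60 for Irak1, none of which passed. Tnfaip3, the ubiquitin-editing brake on NF-kB and the highest of the negative regulators, was at 731 and 701 FPKM in TissueExTRM, 406 and 589 in TissueExTcirc, 618 in CirculatingExTRM replicate 2, and 525 and 684 in CirculatingExTcirc, and did not pass.

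Type 2 output genes, which IL-33 and IL-25 are known to induce in Th2 cells, were all 11 at 0 in both CirculatingExTcirc libraries. So were 27.4% of the 9096 genes tested, but only 6 of the 11 belong to those. Il9 was at 0 in all 7 libraries, and Il4, Il13, Il6 and Il10 averaged 0.49 to 3.60 FPKM over them. Zeros are commoner at low levels, with 45.4% of protein-coding genes at least as high as Il1rap in tissue at 0 in both. Of the 6 that reached the minimum, Il5, Csf2, Areg, Calca and Tnfsf11 passed as higher in tissue averaged over origin. Of all genes tested 23.6% passed in that direction, but of those at 0 in both CirculatingExTcirc libraries 82.2% did. The list median was 2.67 against 0.73 over all genes, a size that depends on the added 1 where a group is at 0. Il5, the eosinophil growth factor gene, was at 14.3 and 9.22 FPKM in TissueExTRM and 12.0 and 12.3 in TissueExTcirc, and was at 0 in all 3 circulating libraries. Il13 was at 6.66 and 6.55 FPKM in TissueExTRM, 7.37 and 4.64 in TissueExTcirc and 0 in circulation, and was too low on average to be tested. Calca, which encodes the neuropeptide CGRP, was at 110.1 and 41.5 FPKM in TissueExTRM, 36.9 and 39.2 in TissueExTcirc and 12.2 in CirculatingExTRM replicate 2. Csf2 and Areg, the genes of GM-CSF and amphiregulin, did not follow this. Csf2 was at 44.4 and 34.4 FPKM in TissueExTRM and 48.2 in CirculatingExTRM replicate 2, and Areg was at 34.6 and 19.5 FPKM in TissueExTRM and 27.8 in CirculatingExTRM replicate 2. None of the 6 tested passed within ex-TRM cells, where Il5 had a difference of 3.65 ± 0.40 (limma adjusted p = 0.293).

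Of 8 tested type 1 output genes, Tnf, Cxcr3 and Tbx21 passed as higher in tissue averaged over origin, and Ifng did not. All 3 were at 0 in both CirculatingExTcirc libraries, as were 2052 of the 2147 genes called higher in this comparison (23.6% of all). Ifng, which IL-18 induces in Th1 cells, was at 8.51 and 15.9 FPKM in TissueExTRM, 3.82 and 4.15 in TissueExTcirc, 5.75 in CirculatingExTRM replicate 2, and 9.76 and 0 in CirculatingExTcirc. Of 11 tested transcription factors that have been linked to Il1rl1 or Il18r1, Tbx21 and Pparg passed as higher in the same comparison, both with a pair of zeros in CirculatingExTcirc, which is no larger a share than the 23.6% of all genes. Gata3, the Th2 lineage factor, did not pass. Gata3 was at 274 and 209.7 FPKM in TissueExTRM, 194 and 249.6 in TissueExTcirc, 186 in CirculatingExTRM replicate 2, and 49.4 and 231 in CirculatingExTcirc replicates 1 and 2, so it was detected in both libraries that listed Il1rl1 at 0.

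Other cells that carry these receptors were looked for by their markers. Of 10 mast cell and basophil markers, Prss34, Fcer1a and Tpsb2 were at 0 in all 7 libraries. Mcpt8, Kit and Gata2 were above 0 in all 7. Hdc reached 9.71 FPKM in TissueExTcirc replicate 1 and 8.05 FPKM in CirculatingExTRM replicate 2. The summed level of the 10 was 6.04 to 21.8 FPKM in tissue, 17.1 in CirculatingExTRM replicate 2, and 13 and 13.98 in CirculatingExTcirc. This sum was below the level of Il1rl1 alone in the libraries that listed Il1rl1, which does not measure the share of such cells. Of 9 natural killer and type 1 innate markers, Ncr1, Klra8 and Gzma were at 0 throughout. Eomes was above 0 in all 7 libraries, with 37.3 FPKM in CirculatingExTcirc replicate 2, and Prf1 reached 7.54 FPKM in TissueExTcirc replicate 1. The 9 summed to 8.47 to 22.9 FPKM in tissue, 7.54 in CirculatingExTRM replicate 2, and 38.0 and 37.3 in CirculatingExTcirc. Markers of group 2 innate lymphoid cells cannot separate those cells here, since Th2 cells share Gata3, Il7r, Rora, Id2, Thy1 and Areg, and the list summed to 601 to 831 FPKM in tissue, 657 in CirculatingExTRM replicate 2, and 364 and 354 in CirculatingExTcirc. All 11 of that list were above 0 in TissueExTRM replicate 2 and 9 or 10 in the other tissue libraries. Of 8 tested genes of that list, Areg and Il9r passed as higher in tissue averaged over origin, near the 23.6% of all genes called in that direction. Areg and Il9r were at 0 in both CirculatingExTcirc libraries. Regulatory T cells can also carry ST2, and their 6 markers summed to 143 to 216 FPKM in tissue, 229.9 in CirculatingExTRM replicate 2, and 108 and 41.5 in CirculatingExTcirc. Foxp3, the lineage factor of these cells, was at 2.65 and 2.88 FPKM in TissueExTRM, 8.30 and 6.27 in TissueExTcirc, 5.52 in CirculatingExTRM replicate 2 and 0 in both CirculatingExTcirc libraries. Il2ra, which activated T cells also express, was the 1 of 3 tested that passed as higher in tissue averaged over origin, with 1.46 ± 0.25 (SE; limma adjusted p = 0.0176). The share of all genes called in that direction was again 23.6%. Myeloid markers summed to 73.2 to 275 FPKM in tissue and 124 in CirculatingExTRM replicate 2, and reached 1121 and 308 in CirculatingExTcirc. Lung epithelial markers summed to 11.1 to 93.3 FPKM in tissue, 36.5 in CirculatingExTRM replicate 2, and 588 and 0 in CirculatingExTcirc replicates 1 and 2, with 421 of the 588 from Sftpc. B cell markers summed to 395 FPKM in TissueExTcirc replicate 1 and to 20.7 to 63.2 in the other tissue libraries, against 37.2 in CirculatingExTRM replicate 2, and 257 and 0 in CirculatingExTcirc replicates 1 and 2. The part of these cells in the receptor values was not tested.

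Genes with the most similar profiles were found by the root mean square difference of log2(FPKM + 1) over the 7 libraries, each profile centred on its mean. Closest to Il1rl1 were Snora30, Tspan13 and Cxcr6, at 0.27, 0.27 and 0.29 log2 units. Cxcr6, a chemokine receptor gene, was at 88.8 and 70.5 FPKM in TissueExTRM, 60.7 and 72.8 in TissueExTcirc, 41.0 in CirculatingExTRM replicate 2 and 0 in both CirculatingExTcirc libraries. Closest to Il17rb were Ctla2b (0.27), Snora28 (0.28) and Csgalnact1 (0.29). Closest to Crlf2 were Hars2, Crybg2 and Zcchc9, at 0.07 to 0.08. Il18r1 was most like Runx3 (0.13), Tatdn2 (0.13) and Aamp (0.15), and Il18rap was most like Nckap1l (0.10), Arid4a and Mob1a (both 0.13). Il17ra was most like Map3k8 (0.09), Spata13 (0.15) and BC031181 (0.16), and Il1rap was most like Tmem260 (0.25), Rnu3b1 and Cdyl (both 0.26). Runx3, a T cell transcription factor gene, was at 58.5 and 64.9 FPKM in TissueExTRM, 24.9 and 51.6 in TissueExTcirc, 53.6 in CirculatingExTRM replicate 2 and 40.7 in CirculatingExTcirc replicate 1, with 0 in replicate 2. Among the chains themselves the closest pair was Il18r1 and Il18rap, at 0.36, followed by Il17ra and Il18rap at 0.47, and the most distant was Il1rl1 and Il17ra, at 2.69. Similarity over 7 libraries includes the zeros the libraries share.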

How the data were processed

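RNA-seq libraries were made from sorted cells with a strand-specific kit and sequenced as read pairs, per the labels' protocols. The deposited values are FPKM per gene, normalised by the authors, per the file headers. StringTie 3.0.1, SAMtools 1.15, HISAT2 2.2.1, Trim Galore 0.6.7 and the build mm10 are listed in the submitters' processing notes. Which annotation and strand setting served is not given in the sources used here. A further 14 ATAC-seq samples were not analysed here. FPKM of repeated gene names were summed. Protein-coding names held 10.2% to 14.0% of the FPKM sum of the 7 libraries used. Depth is unknown, and no interval for counting error can be given.

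Groups and replicate numbers came from the sample titles. limma 3.58.1 (R 4.3.3) was fitted to log2(FPKM + 1) as 4 group means with an intensity trend, over 7 libraries and the 9096 names with a mean of at least 5 FPKM, and calls were made at a Benjamini-Hochberg adjusted p under 0.05. The plan allowed for TPM or FPKM. A fold on this scale understates the change of low genes. The 3 residual degrees of freedom limit the precision. Same-numbered libraries did not deviate together (correlations of -0.12 to 0.00 over 9096 genes). Whether numbers pair samples is not known, since correlations between so few libraries cannot settle it. In simulated data, 50 genes each were changed by 1, 2 and 4 on the log2 scale. For tissue minus circulating averaged over origin 50%, 72% and 88% of them were called, with 2 false calls. For ex-TRM minus ex-Tcirc in tissue 18%, 58% and 80% were called, with 1 false call. All 7 simulated libraries had the spread of the tissue libraries and no zeros like those of CirculatingExTcirc. The shares and false calls for tissue minus circulating therefore do not carry over to the data. Named genes were the 7 chains, the genes of the lists that passed or, where none passed, up to 3 with the highest means, and the 3 most similar profiles of each chain. Other names were chosen after their values had been seen. The members and lists were chosen with earlier results of these data known. Alternatives were other pseudocounts, minimums, scalings, library weights, a replicate block, fits of only the groups compared, 8 libraries, the highest value per gene name and leaving out each library, and, added after the data had been seen, equal protein-coding sums, protein-coding names only and 5 libraries.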

Additional observations from a re-analysis of the deposited data

Results flagged for a closer look

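For Il1rl1 and Crlf2 the difference between tissue and circulating cells passed a test of its own difference between the origins, in a fit with 1 CirculatingExTRM library and a pair of zeros in CirculatingExTcirc. The interaction, the log2 difference of tissue minus circulating in ex-TRM less the same in ex-Tcirc, was -5.32 ± 0.63 (SE; limma adjusted p = 0.00918) for Il1rl1 and -3.17 ± 0.47 (limma adjusted p = 0.0138) for Crlf2. In ex-TRM the difference was 1.27 for Il1rl1 and -0.13 for Crlf2, against 6.59 and 3.04 in ex-Tcirc, where both genes were at 0 in both circulating libraries, so these sizes depend on the added 1. Of all 9096 genes, 1996 were called in this direction, and 1964 of them were at 0 in both CirculatingExTcirc libraries. The calls of Il1rl1 and Crlf2 ended without either TissueExTRM library (adjusted p = 0.0573 to 0.0697), with library weights (0.129 and 0.109) and with the replicate block (0.0513 and 0.0581).

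The library left out of the comparisons, CirculatingExTRM replicate 1, held values of 3 listed genes above every other library. It listed only 917 names above 0, with 1 of 12 housekeeping genes. How many fragments its values rest on is not known, so they do not show a high level in these cells. Il17re, a chain of the IL-17 receptor family, was at 711.5 FPKM there, against 1.37 to 12.2 FPKM in the 7 libraries used. Cebpa, a myeloid transcription factor gene, was at 45.2 FPKM there, against 0 to 12.3 FPKM in those 7 libraries. Col1a2, a collagen gene of fibroblasts, was at 108.2 FPKM there, against 1.81 to 6.71 FPKM in the same 7.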

How the results depend on the processing

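The main counts of called genes (limma) were 2259 for tissue minus circulating averaged over origin, 2640 within ex-Tcirc, 0 within ex-TRM, 0 for ex-TRM minus ex-Tcirc in tissue, 2243 in circulation and 2013 for the interaction. In that order they became 4345, 4981, 854, 584, 5128 and 3165 with no minimum, and 977, 724, 96, 1, 808 and 0 with library weights. For the averaged, ex-Tcirc and circulating comparisons they were 3618, 5984 and 4400 with at least 1 FPKM in 2 libraries, and 195, 242 and 176 with a mean of at least 20 FPKM, where the interaction had 4. Among the 5304 genes above 0 in all 7 libraries limma called 0 in these 4 comparisons (532, 858, 334 and 172 at an unadjusted p under 0.05). Over 8 libraries it called 0, 1, 0 and 0 in them. A pseudocount of 0.1 gave 35 calls within ex-TRM, a pseudocount of 5 gave 1020 for the interaction, and protein-coding names alone gave 1 call in tissue by origin.

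Leaving out 1 library gave 1349 to 6393 calls averaged over origin, 2270 to 7083 within ex-Tcirc, 0 to 85 by origin in tissue, 2000 to 6632 by origin in circulation and 0 to 6125 for the interaction, with the highest count without CirculatingExTcirc replicate 1, or TissueExTcirc replicate 2 in tissue by origin. Without CirculatingExTRM replicate 2, comparisons that need its group had no value.

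The replicate block, whose numbers are not known to pair the samples, gave 0 interaction calls (2337 at an unadjusted p under 0.05). Under it the averaged difference was -0.19 for Il17ra, and that within ex-TRM was -0.68 for Il18r1. Signs of members also turned elsewhere, and the cause was not tested. Averaged over origin, Il17ra had -0.11 with a pseudocount of 5. Leaving out 1 library gave averaged differences of -0.97 to 1.43 for Il17ra, -0.015 to 2.52 for Il18r1 and -0.42 to 2.11 for Il18rap, and differences within ex-Tcirc of -1.46 to 3.33, -0.038 to 5.04 and -0.57 to 4.50 for the same genes. It gave interactions of -3.81 to 0.98, -5.03 to 0.046 and -4.78 to 0.29 for them, and -0.57 to 4.22 by origin in circulation for Il17ra. It gave -0.10 to 0.12 within ex-TRM for Il18r1, and in tissue by origin -0.57 to 0.23 for Il1rl1 (0.04 without TissueExTcirc replicate 2) and -0.10 to 0.90 for Il17rb. Median-of-ratios factors gave 0.14 for Crlf2 and 0.0080 for Il18rap within ex-TRM. Over 8 libraries the values within ex-TRM were 1.63 for Il17ra, 1.597 for Crlf2 and 2.28 for Il18rap, that by origin in circulation was -0.29 for Il17ra, and the interactions were 0.69 for Il17ra, 0.36 for Il18r1 and 0.31 for Il18rap. Of the other values of single members, 627 kept their direction and side of the threshold, 31 kept the direction and lost the threshold, and 18 gained it. Calls against CirculatingExTcirc are limited by what its 2 libraries list.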
